A study of Mus musculus with 5 samples.

Results

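C1qa, C1qb, C1qc, C3, Cfp, C3ar1 and C5ar1 are 7 complement genes that macrophages are known to use, listed by symbol out of 21000 protein-coding genes with a curated transcription start site (TSS) in RefSeq. DNaseI hypersensitive sites (DHSs), places where chromatin is open enough to be cut by the nuclease DNase I, were mapped in cells of strain 129 that were differentiated in vitro from a mouse embryonic stem (ES) cell line with a GFP reporter in the Brachyury (Bry) gene and grown on feeder fibroblasts. Cells of 5 stages were sorted. Mesoderm (MES) and hemangioblasts (HB) both carried the reporter signal, Bry:GFP+, and were separated as Flk1- and Flk1+ cells. Hemogenic endothelium (HE) was sorted as Bry:GFP+ cells that were also Tie2+, cKit+ and CD41-. CD41 also marked the progenitors of blood (HP, CD41+), and CD11b marked the macrophages (MAC, CD11b+). Each stage was represented by 1 list of sites, and the label of the MAC list names 2 replicates together. No difference between stages could therefore be set against a spread between replicates, and no test was made. A site was counted for a gene if its edge reached to 1 kb or less from an annotated TSS of that gene (a promoter site). A site inside the gene or up to 100 kb from its TSS was also counted if that gene was the nearest protein-coding gene by TSS. By this rule the 7 genes held 17 of the 135173 listed sites.

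Complement is a cascade of serum proteins that tags microbes and dying cells for uptake. The classical branch starts when C1q, which is assembled from the A, B and C chains encoded by C1qa, C1qb and C1qc, binds its target. All branches meet at C3, the central protein that is cleaved and deposited on the target, and properdin, the product of Cfp, stabilises the enzyme of the alternative branch that cleaves it. Small fragments released from C3 and C5 act on the receptors encoded by C3ar1 and C5ar1. Much of the circulating complement is made by the liver, whereas macrophages are a known source of C1q and properdin and carry both receptors.

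Most of the sites of these genes were listed in MAC, the longest list. MES and HB had 1 site each, HE had 3, HP had 2 and MAC had 10. When each list was limited to as many of its widest sites as HP has sites, MAC had 6. Of the 7 genes, 2 had a site in MES or HB, against 70.1% of all genes, and all 7 had at least 1 in MAC, against 66.6%. No promoter site was listed for any of the 7 genes in MES or HB, where 57.2% and 58.9% of all 21000 genes had one. C3ar1 was the only one of the 7 with a promoter site in HE and in HP, against 61.7% and 50.1% of all genes. In MAC, 6 of the 7 genes had a promoter site, against 50.2% of all genes, and C5ar1 was the exception. The same 6 had a promoter site in neither MES nor HB, a combination found for 3.04% of all genes. C1qa, C1qb, C1qc, C3 and Cfp had a promoter site in MAC and in no other list, a pattern shared by 372 of all genes (1.77%). C3ar1 had one in HE, HP and MAC, a pattern shared by 92 genes (0.438%). The lists hold no read counts and the depth of the libraries was not used here, so a missing site says that none passed the caller and does not show closed chromatin.

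**Figure D1:**
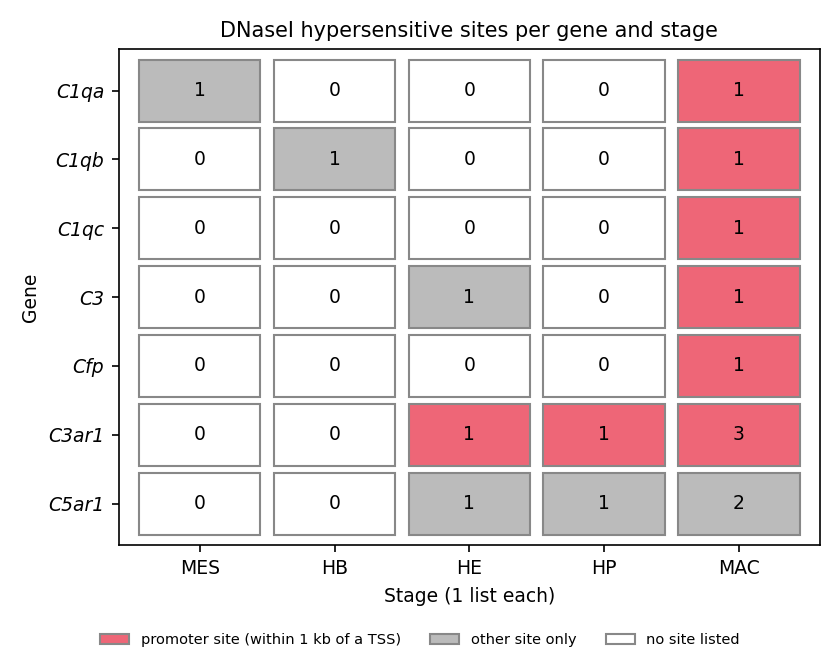
Number of listed DHSs counted for each gene (rows) in each stage (columns), 1 list per stage. Red cells hold a promoter site, grey cells hold other sites only, and white cells hold none. The MAC column holds 10 of the 17 sites, and red cells outside it occur only for C3ar1 in HE and HP.

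The lists differed in length and width. They held from 17734 sites (HP) to 37456 sites (MAC), with a median width from 600 bp (MAC) to 1200 bp (HE). Promoter sites at fixed marker genes were counted for the labelled cell types, to be read beside the 50.1% (HP) to 61.7% (HE) of all genes with one in a stage. Some markers encode proteins used for the sort, such as Itgam (CD11b) for MAC. The markers were also chosen with earlier results of these data known, so the counts are no independent check of the labels. Of 10 macrophage markers, all had a promoter site in MAC, against 1 in MES and 2 each in HB, HE and HP. In MAC, 1 of 5 granulocyte markers (S100a8) had one, as did 2 of 5 megakaryocyte and erythroid markers (Pf4 and Klf1), 2 of 5 mesoderm markers (Kdr and Pdgfra) and none of 5 endothelial, 5 fibroblast or 4 pluripotency markers. In HE, all 5 megakaryocyte and erythroid, 4 of 5 mesoderm, 3 of 5 endothelial, 3 of 5 fibroblast, 2 of 10 macrophage, 1 of 5 granulocyte and 1 of 4 pluripotency markers had one. In MES and in HB, all 5 mesoderm, 3 of 4 pluripotency and 3 of 5 fibroblast markers had one, and no granulocyte or endothelial marker did. Of 5 megakaryocyte and erythroid markers, 2 had one in MES and 1 in HB. In HP, all 5 megakaryocyte and erythroid markers had one, as did 1 of 5 each of the mesoderm, endothelial and fibroblast markers. No granulocyte or pluripotency marker had one in HP. The part of other cell types in the sites described here was not tested.

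The DNA that lies open in these lists is shown first, since the later paragraphs refer to its position. Sequences are those of the reference strain C57BL/6J, build GRCm38.p6 (mm10), and not of the strain 129 cells. Promoter sequences are the 250 bases before the TSS from the RefSeq promoter table, in which 6 of the 7 genes were found and C1qa was not. They are written along the gene, which lies on the minus strand in every case. Capitals mark exact matches, on either strand, to the letters of 8 fixed motifs: PU.1 (GAGGAAGT), CEBP (TTGCNNAA), AP-1 (TGANTCA), RUNX (TGTGGT), TEAD (CATTCC), the GATA factors (AGATAA), IRF (GAAA repeated after 2 free bases) and NF-kB (GGGA and CC with 4 free bases between). The only matches that overlap each other are those of NF-kB on the opposite strands of C1qb. A match describes the letters and not the binding of a factor, and the absence of a match says only that these letters are not in the window.

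The promoters of C1qb (chr4:136886201-136886450), C1qc (chr4:136892915-136893164), C3 (chr17:57228137-57228386) and Cfp (chrX:20931556-20931805) are given because a site covered their TSS in MAC alone. That of C3ar1 (chr6:122856158-122856407) is given because a site covered its TSS from HE on.
C1qb promoter: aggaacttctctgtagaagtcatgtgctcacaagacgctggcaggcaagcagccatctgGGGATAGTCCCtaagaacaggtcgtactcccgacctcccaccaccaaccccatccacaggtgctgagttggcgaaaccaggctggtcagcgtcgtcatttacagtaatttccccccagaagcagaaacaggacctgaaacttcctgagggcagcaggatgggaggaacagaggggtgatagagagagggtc
C1qc promoter: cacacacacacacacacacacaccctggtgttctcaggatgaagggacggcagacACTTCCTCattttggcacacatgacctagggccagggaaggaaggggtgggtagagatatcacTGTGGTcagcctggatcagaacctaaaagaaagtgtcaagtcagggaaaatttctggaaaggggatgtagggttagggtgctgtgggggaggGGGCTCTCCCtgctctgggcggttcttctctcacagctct
C3 promoter: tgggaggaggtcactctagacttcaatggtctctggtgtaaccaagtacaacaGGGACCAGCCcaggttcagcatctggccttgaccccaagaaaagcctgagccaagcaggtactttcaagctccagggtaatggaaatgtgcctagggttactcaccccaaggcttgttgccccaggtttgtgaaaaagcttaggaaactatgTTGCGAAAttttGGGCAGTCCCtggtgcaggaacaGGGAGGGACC
Cfp promoter: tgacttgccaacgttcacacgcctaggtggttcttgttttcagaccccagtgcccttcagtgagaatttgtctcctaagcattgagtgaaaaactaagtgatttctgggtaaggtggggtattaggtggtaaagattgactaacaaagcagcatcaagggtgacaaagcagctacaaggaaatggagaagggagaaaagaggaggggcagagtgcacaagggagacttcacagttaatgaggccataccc
C3ar1 promoter: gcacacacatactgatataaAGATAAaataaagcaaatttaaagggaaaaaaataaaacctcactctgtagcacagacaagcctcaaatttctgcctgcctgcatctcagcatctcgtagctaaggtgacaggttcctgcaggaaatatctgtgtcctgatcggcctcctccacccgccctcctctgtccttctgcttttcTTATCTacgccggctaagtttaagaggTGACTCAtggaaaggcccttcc

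Away from the promoters, 3 stretches of 300 bases are given. The first is the middle of the intronic stretch of C5ar1 that HE, HP and MAC sites have in common (chr7:16254177-16254476). The second is the further intronic site of C5ar1 listed in MAC (chr7:16257910-16258209), and the third the middle of the MAC site upstream of C3ar1 (chr6:122862950-122863249).
C5ar1 intron, HE, HP and MAC: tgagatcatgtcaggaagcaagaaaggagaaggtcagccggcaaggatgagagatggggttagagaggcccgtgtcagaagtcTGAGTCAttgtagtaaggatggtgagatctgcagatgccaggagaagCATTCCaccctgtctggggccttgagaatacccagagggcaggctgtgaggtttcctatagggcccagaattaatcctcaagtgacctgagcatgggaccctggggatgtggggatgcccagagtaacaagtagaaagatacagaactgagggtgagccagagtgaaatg
C5ar1 intron, MAC: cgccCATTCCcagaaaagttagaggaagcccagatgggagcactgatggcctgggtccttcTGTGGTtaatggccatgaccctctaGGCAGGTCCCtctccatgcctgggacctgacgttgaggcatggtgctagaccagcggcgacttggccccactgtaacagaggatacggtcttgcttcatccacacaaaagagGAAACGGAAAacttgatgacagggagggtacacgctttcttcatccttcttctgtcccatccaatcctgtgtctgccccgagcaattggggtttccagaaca
C3ar1 upstream, MAC: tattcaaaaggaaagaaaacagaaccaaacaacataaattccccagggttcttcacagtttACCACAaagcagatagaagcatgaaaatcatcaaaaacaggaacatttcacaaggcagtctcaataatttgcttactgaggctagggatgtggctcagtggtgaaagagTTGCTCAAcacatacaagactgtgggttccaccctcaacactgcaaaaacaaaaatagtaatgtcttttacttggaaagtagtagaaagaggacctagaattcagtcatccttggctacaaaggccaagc

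The C1q genes, which encode the chains of the molecule that starts the classical branch, were examined next. They lie side by side on chromosome 4 within 18.7 kb (chr4:136880126-136898844), in the order C1qa, C1qc and C1qb along the direction of transcription. Their curated TSS are 5.93 kb (C1qa to C1qc) and 6.71 kb (C1qc to C1qb) apart. MAC had exactly 3 sites in the cluster, each over the TSS of a different gene, and the other 4 lists had none there.

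The MAC site of C1qa (chr4:136898407-136899206) was 800 bp wide, with its middle 37.5 bp downstream of the TSS in the untranslated part of an exon. That of C1qc (chr4:136892707-136893306) was 600 bp wide and centred 92.5 bp upstream. That of C1qb (chr4:136885707-136886706) was 1000 bp wide and centred 6.5 bp upstream, and 15.3% of all MAC sites were at least as wide. Each chain gene had a promoter site of its own, and no listed site spanned the starts of 2 genes. When each list was limited to as many of its widest sites as HP has sites, C1qc had no site. All widths are multiples of 100 bp, and 51% of MAC sites were at least as wide as that of C1qc. The limit can thus fall among sites of equal width, so this loss may depend on how such sites were ordered.

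Around the cluster the lists differed in another way. Within 50 kb on either side, MAC had no further site. MES had 2 sites, HB had 3, HE had 1 and HP had none. A MES site (chr4:136904818-136905317, 500 bp) lay 6.22 kb upstream of C1qa outside annotated protein-coding genes, and an HB site (chr4:136867516-136868215, 700 bp) lay 18.3 kb from the C1qb TSS, beyond the end of the gene. Neither of these places had a site in any other list. The remaining sites of this window were nearest to Ephb2, a guidance receptor gene whose TSS lies 50.2 kb from that of C1qb. Ephb2 and Epha8, the next protein-coding genes on either side, had no promoter site in any stage. In HP the site nearest to C1qa was 89.9 kb away from its TSS, and in HE it was 57.2 kb away.

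**Figure D2:**
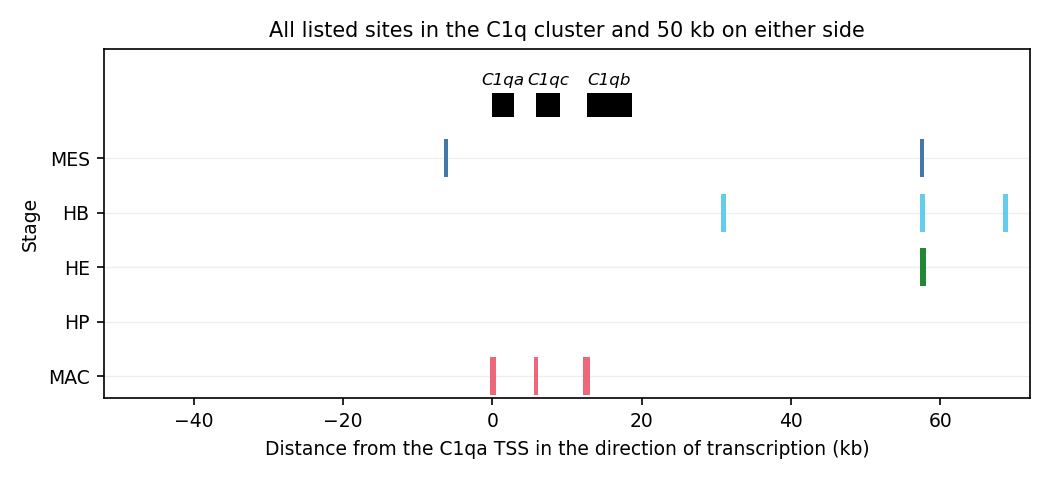
All listed sites (coloured bars, to scale, 1 row per stage) in the C1q cluster and 50 kb on either side, by distance in kb from the C1qa TSS along the direction of transcription, with gene bodies in black. The 3 MAC sites sit at the start of the 3 genes, and every site of MES, HB and HE lies outside the cluster.

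C3, the protein on which the branches converge, lies on chromosome 17 (chr17:57203967-57228136). It had 1 site in HE, 1 in MAC and none in MES, HB or HP. The MAC site (chr17:57227988-57228487) was 500 bp wide, narrower than the median MAC site of 600 bp, and covered the TSS with its middle 0.102 kb upstream. The HE site (chr17:57219224-57219923) was 700 bp wide and lay in a coding exon 8.56 kb downstream of the curated TSS. Its edge was 1042 bp from a predicted internal TSS of C3, just outside the reach of a promoter site. The HE and MAC sites of C3 thus did not overlap. C3 lies between Tnfsf14, a cytokine gene that had a promoter site in MAC only, and Gpr108, which had a promoter site in all 5 stages.

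Cfp, which encodes properdin, lies on the X chromosome (chrX:20925454-20931555). It had 1 site, in MAC (chrX:20931339-20932338). The site was 1000 bp wide, covered the TSS and was centred 283.5 bp upstream of it, the farthest of the 6 promoter sites in MAC. Its neighbours Syn1 and Elk1, with TSS 10.6 and 19.1 kb away, had promoter sites in all 5 stages. In MES, HB, HE and HP the site nearest to the Cfp TSS was that of Syn1, at distances from 9.84 kb (HE) to 10.2 kb (HP).

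At the receptor genes, unlike the other 5 genes, a MAC site had counterparts at the same place in HE and HP. C3ar1, the receptor for the small C3 fragment, lies on chromosome 6 (chr6:122847140-122856157). It had no site in MES or HB, where the site nearest to its TSS was 18.1 and 17.9 kb away and belonged to Necap1. HE had 1 site (chr6:122855509-122856908, 1400 bp), HP 1 (chr6:122855857-122856556, 700 bp), and MAC had 1 at the same place (chr6:122855750-122856549, 800 bp). All 3 covered the TSS, and 693 bp were common to them. The HE site held the whole of the HP and MAC sites, and 99% of the HP site lay within the MAC site.

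MAC had another 2 sites at C3ar1, at places where HE and HP had none. One (chr6:122852750-122853149, 400 bp) lay in the intron 3.21 kb downstream of the TSS, and the other (chr6:122862650-122863549, 900 bp) lay 6.94 kb upstream, outside annotated genes. With 3 sites in MAC, C3ar1 had the most of the 7 genes, a number that 21.7% of all genes reached or passed, and at least 2 sites, as C3ar1 and C5ar1 had, were found for 37.3%. The next gene on the far side, Foxj2, had a promoter site in MES, HB and HE but in neither HP nor MAC.

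C5ar1, the receptor for the small C5 fragment, lies on chromosome 7 (chr7:16246743-16259540) and has 2 curated TSS, at 16259540 and 16259338. It had no site in MES or HB, a single one in HE and HP each and 2 in MAC, and none of them was a promoter site. The sites of HE (chr7:16253927-16255126, 1200 bp), HP (chr7:16254077-16254576, 500 bp) and MAC (chr7:16254010-16254909, 900 bp) lay at one place in the intron, 4.81 to 5.01 kb downstream of the nearer TSS. The HP site lay whole within both of the others. The second MAC site (chr7:16257910-16258209, 300 bp) was also intronic, with its middle 1.28 kb from the nearer TSS and its edge 1129 bp away, just outside the reach of 1 kb.

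Among all genes, 1636 (7.79%) had, like C5ar1, no promoter site in MAC but a MAC site inside the gene. C5ar2, which encodes the other C5a receptor and starts 15.4 kb away, had a promoter site in MAC only. C3ar1 and C5ar1 thus each had 1 place that was listed from HE through HP to MAC, at the TSS for C3ar1 and in the intron for C5ar1. The HP sites of both genes were narrower than the median of the HP list, 900 bp, so with only sites of median width or wider both genes had sites in HE and MAC and 0 in HP.

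**Figure D3:**
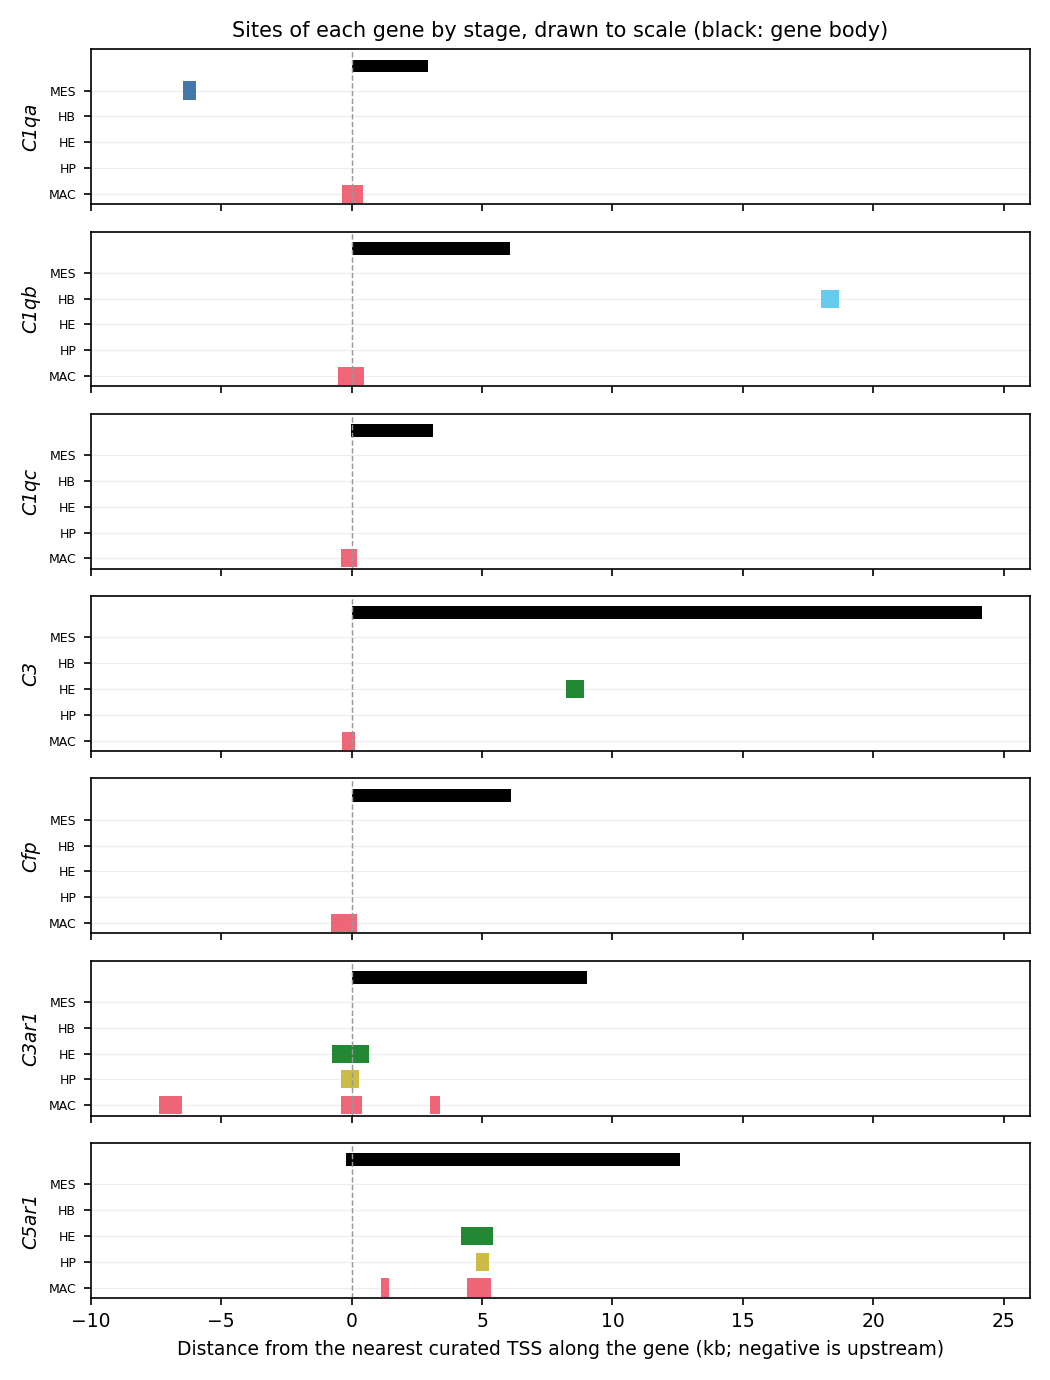
Position of each site (coloured bars, to scale) by distance in kb from the nearest curated TSS along the gene, in 1 panel per gene and 1 row per stage, with gene bodies in black. MAC sites lie over the TSS of every gene but C5ar1, and sites of HE, HP and MAC lie above each other at C3ar1 and at C5ar1.

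To set these sites against the whole of the lists, windows of 500 bp around the middle of each site were merged across stages where they overlapped by at least 25% of a window. A region is called open in the stages whose lists have a site in it. The 7 genes held 13 of the 68846 merged regions. Of these, 8 were open in MAC only, a pattern of 31% of all regions, and 2 in HE, HP and MAC, a pattern of 1.52%. The other 3 were the regions at C1qa open in MES, at C1qb open in HB and at C3 open in HE. No region of these genes was open in all 5 stages, the pattern of 13.2% of all regions. Among regions open in MAC, 8 of 10 at these genes had no site in an earlier list, against 57.1% of all 37444. The count of MAC-only regions at the 7 genes was 5 when only sites as wide as the median of their list or wider were used, and 4 when each list was limited to as many of its widest sites as HP has sites.

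The MAC promoter sites had widths from 500 bp (C3) to 1000 bp (C1qb and Cfp), with a median of 800 bp, which was also the median of all 10441 MAC sites at promoters. Other MAC sites had a median of 500 bp. In all 6 genes the site covered a curated TSS, which held for 43.9% of all genes and for 87.4% of the 10539 genes with a MAC promoter site. No curated TSS of another protein-coding gene lay closer than 5.93 kb to that of any of the 7 genes. The order of the genes by number of MAC sites was C3ar1 with 3, C5ar1 with 2 and the other 5 genes with 1 each, and with 1 list such differences have no error. When only sites as wide as the median of their list or wider were used, C3ar1 had 2, C5ar1 had 1 and C3 had 0, and when each list was limited to as many of its widest sites as HP has sites, these numbers were the same and C1qc also had 0. When all genes were compared by their number of sites in the 5 stages, 440 genes had the same numbers as C1qc and Cfp, and 12 had those of C3ar1. For C5ar1 there were 19 such genes, for C1qa 34, for C1qb 58 and for C3 163, too many to name.

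The promoters of these genes were poor in CpG, the dinucleotide in which most methylation of mouse DNA occurs. Over the 300 bases from 250 before to 50 after the TSS, the ratio of observed to expected CpG was 0.113 for Cfp, 0.14 for C5ar1, 0.141 for C3, 0.144 for C1qc, 0.253 for C1qb and 0.325 for C3ar1. For C5ar1 the window was that of the TSS at 16259338, and it ran across the other curated TSS, at 16259540. The median of all 20484 protein-coding promoters in the table was 0.588, and 32.5% of them were at or below C3ar1, the highest of the 6. Promoters open in MAC only had a median of 0.237 (n = 347), those open in HE, HP and MAC only, the pattern of C3ar1, 0.398 (n = 89), those open in all 5 stages 0.793 (n = 9534), and those open in no stage 0.187 (n = 5923). C5ar1, which had no promoter site, and C3, which had one in MAC, had nearly equal ratios. The GC content ranged from 46% (C3ar1) to 56.3% (C1qb), with a median of 57% over all promoters.

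The motif letters were spread unevenly over the 5 promoters shown above and that of C5ar1, which is not shown and was taken before its TSS at 16259338. In the 250 bases before the TSS, the PU.1 letters were found in C1qc only, starting at position -195 from the TSS, and 2.28% of all promoters and 7.78% of those open in MAC only held them. PU.1 is an ETS factor required for macrophages. The RUNX letters stood in C1qc and in C5ar1 (all promoters 11.9%, those open in MAC only 19.6%). C3 held the CEBP letters at -45 (all promoters 9%, those open in MAC only 15%) and the NF-kB letters at 3 places. NF-kB letters were also found in C1qb and C1qc, and 20% of all promoters and 16.7% of those open in MAC only held them. C3ar1, the promoter listed from HE on, held the GATA letters at 2 places (all promoters 8.74%, those open in MAC only 8.07%) and the AP-1 letters at -22 (all promoters 6.25%, those open in MAC only 11%). The shares among promoters open in HE, HP and MAC only, the pattern of C3ar1, were not computed. Cfp held none of the 8.

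Away from promoters, the stretch of C5ar1 common to HE, HP and MAC held the AP-1 and TEAD letters. Of the 28023 MAC sites over 1 kb from a TSS, 26.9% held AP-1 and 14.6% held TEAD letters in their central 300 bases. The second intronic site of C5ar1, listed in MAC, held RUNX (28.4% of such sites), TEAD, NF-kB (14.3%) and IRF letters (5.06%). The MAC site upstream of C3ar1 held the RUNX and CEBP letters, the latter found in 20.3% of such sites, and its intronic MAC site held none of the 8. The PU.1 letters, present in 11.2% of such sites, were in none of these 4.

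The rest of the complement system was described with a fixed list, of which 42 genes matched in the annotation are reported and 1, C4a, was not matched. The number with a promoter site ranged from 10 of the 42 (MES and HP) to 13 (HE), and in MAC it was 12, or 28.6%, against 50.2% of all genes. No stage had one for 23 of them, against 32.4% of all genes. MAC-only promoter sites were found for 4 of the 42, against 1.77% of all genes.

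**Figure D4:**
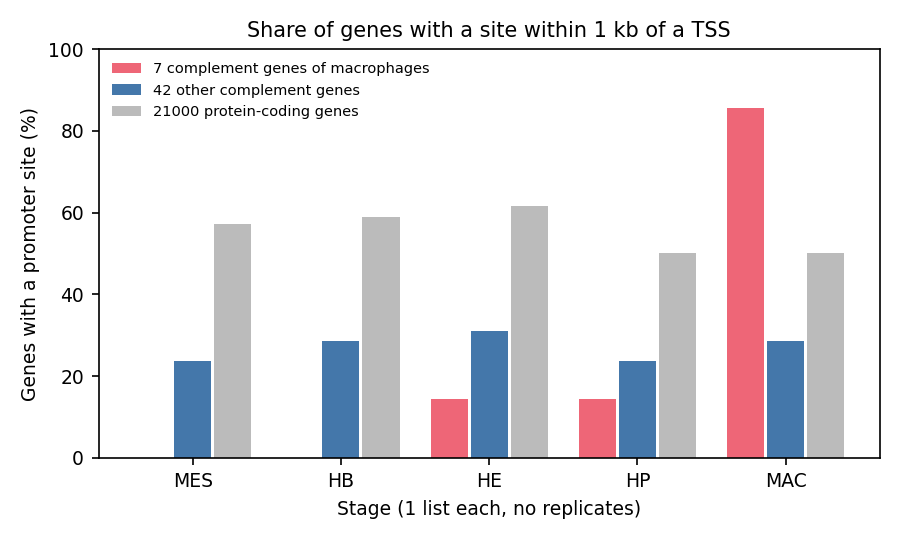
Share in percent of the 7 complement genes (red), the 42 other complement genes (blue) and all 21000 protein-coding genes (grey) with a site within 1 kb of a TSS, by stage, with 1 list per stage and no error bars. The red bar is 0 in MES and HB and 85.7% in MAC, where the blue bar is 28.6% and the grey bar 50.2%.

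By role, promoter sites were counted beside the 32.4% of all genes that had none in any stage. Of 6 classical genes beside C1q, 1 had a promoter site, C1ra in MES, which encodes a protease that acts with C1q. C2 and C4b, whose products form the enzyme that cleaves C3, had 1 MAC site each away from their promoters, as did C1ra, and C2 also had 1 such site in HP. Of 8 genes of the lectin branch, 1 had a promoter site, Masp1 in HB, and Masp1 also had 6 sites in MAC and 1 each in HE and HP outside its promoter. Away from promoters, Fcnb had 1 site each in HB and MAC, Colec11 1 each in HE and HP, and Masp2 1 in HE. Cfb and Cfd of the alternative branch, in which properdin acts, had no promoter site in any stage. Cfb had 1 site in MAC, and Cfd had 1 each in MES, HB and HP.

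Of 7 genes of the terminal pathway, which forms the membrane pore, C8g had a promoter site in all 5 stages, C7 in HE and C9 in MAC. Hc, which encodes C5, the source of the fragment that C5ar1 recognises, had none. Of 5 soluble regulators, Clu had a promoter site in all 5 stages, Vtn in all but MAC, and Serping1 in MES, HB and HE. Of 6 membrane regulators, which protect host cells, Cd55, Cd46 and Cr1l had one in all 5 stages, Cd59a in all but MES, and Cd55b and Cd59b in none. Across the 42 genes, 6 had one in all 5 stages, a pattern of 9534 of the 20484 protein-coding promoters used for CpG.

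Of the 8 receptor genes, 5 had a promoter site in MAC, where 50.2% of all genes had one. Itgam and Itgax, which encode the alpha chains of complement receptors that bind C3 fragments, had a promoter site in MAC only, as did C5ar2. Itgb2, their shared beta chain, had one in HE, HP and MAC, the pattern of C3ar1. Itgam and Itgax had 5 sites each in MAC and Itgb2 had 6, more than any of the 7 genes. Itgam encodes CD11b, by which the MAC cells were sorted. Vsig4, a receptor of tissue macrophages for C3 fragments, had 3 sites in MAC but no promoter site. Cd93, at one time proposed as a C1q receptor, had a promoter site in HB and HE, and 10 sites in MAC away from its promoter. C1qbp, whose product binds C1q, had one in all 5 stages. Cr2, the receptor for C3 fragments on B cells, had one in MES, HB, HE and HP but not in MAC.

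**Figure D5:**
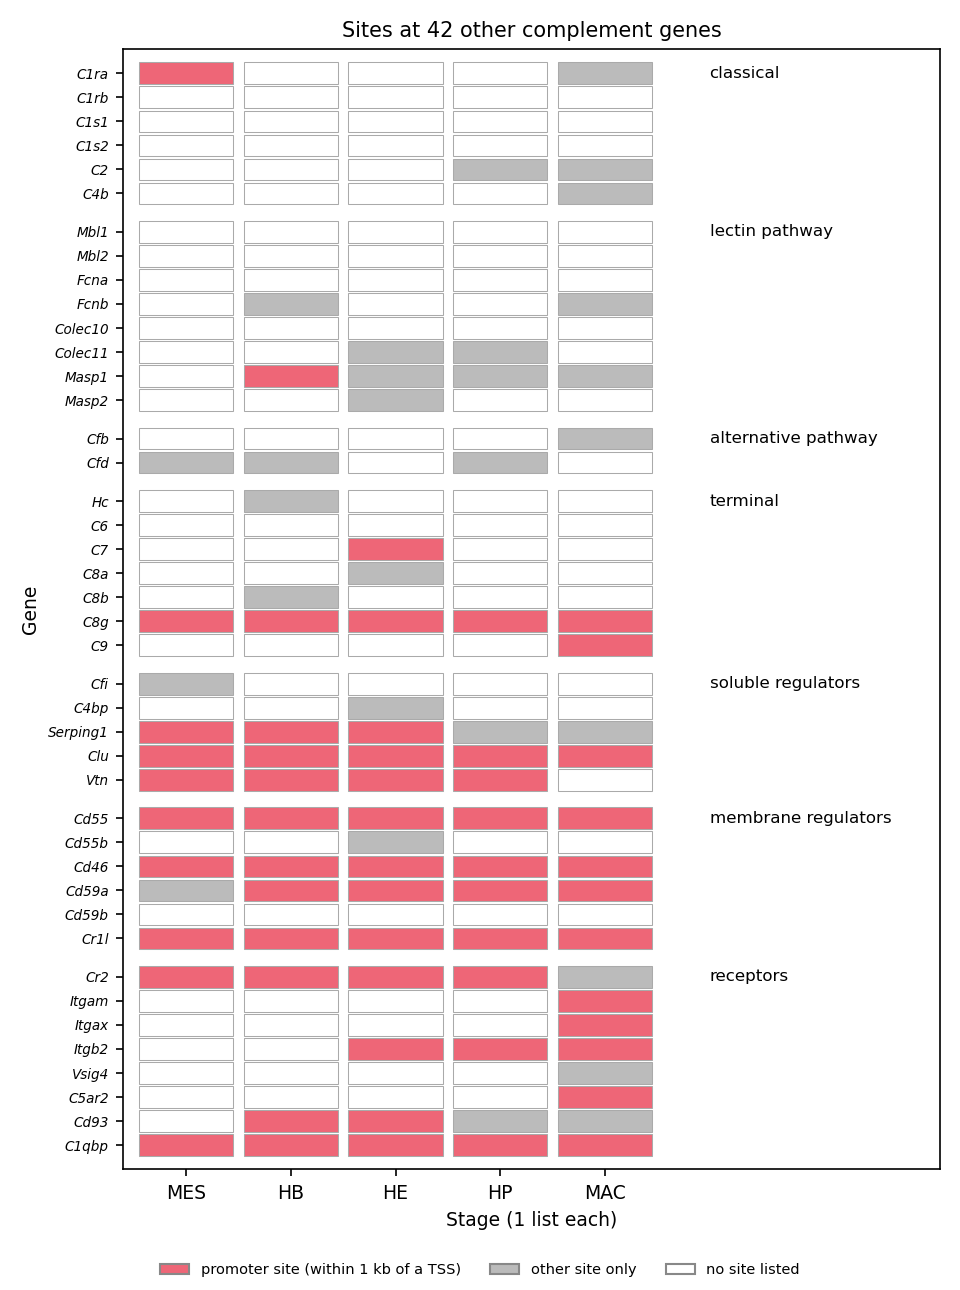
Sites at 42 other complement genes (rows, grouped by role) in each stage (columns), 1 list per stage. Red cells hold a promoter site, grey cells hold other sites only and white cells hold none. Itgam, Itgax, C5ar2 and C9 are red in MAC only, and the membrane regulators Cd55, Cd46 and Cr1l are red in all 5 stages.

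The promoter patterns depended on width and reach at a few genes. When only sites as wide as the median of their list or wider were used, C3 had no promoter site and C3ar1 lost that of HP. When each list was limited to as many of its widest sites as HP has sites, C3 and C1qc had none, and 4 of the 7 genes kept a promoter site in MAC. As said above, the loss of C1qc may depend on the order of sites of equal width. With a reach of 2 kb, C5ar1 had one in MAC, so that all 7 did, and C3 also had one in HE. C1qa, C1qb and Cfp had a promoter site in MAC and in no other stage under each of these settings.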

How the data were processed

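DNaseI-seq site lists of 5 stages, with 1 list each, were analysed. By the study's account, CutAdapt was used for trimming and Bowtie for alignment to mm10, duplicate reads and reads without a unique place were discarded (Picard), and DFilter, with bins of 100 bp, gave the sites. The submitters' processing notes name Bowtie and HOMER. Versions were not given in the sources used here. What the authors deposited is where each site starts and ends, without score or read count, and all widths are multiples of 100 bp. Depth was not used here, and no interval or floor that needs it is given.

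Positions were read as BED, printed counting from 1, and annotated with RefSeq GRCm38.p6 in Python 3.11.15 (NumPy 2.4.6, figures with matplotlib 3.10.9). Protein-coding TSS were the 25999 positions of curated mRNAs. Promoter sites used every annotated TSS of a gene, and nearest genes used the distance of a site's middle to curated TSS. The 7 genes, the other complement genes, the markers and the motifs were chosen with earlier results of these data known, and 1 gene of the complement list is not reported here. All 7 genes and any gene of the fixed complement list could be named, genes alike in their numbers of sites only if at most 5 were equally alike, and neighbours by position. Gene assignment and motif search were tested on simulated data. Alternatives were the reach (100 bp, 2 kb), curated TSS only, nearest gene by gene body, a distal reach of 50 kb, wider sites, and other rules of merging (250 bp, or deposited intervals overlapping by 1 bp).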

Additional observations from a re-analysis of the deposited data

How the results depend on the processing

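Of 121 values recomputed under the alternatives, 105 stayed within 1.5 times the reported value and 16 moved further. When only sites as wide as the median of their list or wider were used, the 7 genes had 0 sites in MES, 0 in HB and 0 in HP, 0 of them had a promoter site in HP, and their merged regions numbered 7, of which 5 were open in MAC only. When each list was limited to as many of its widest sites as HP has sites, they had 6 sites in MAC and 8 merged regions, 4 of them open in MAC only. With a reach of 2 kb, 2 genes had a promoter site in HE. With the nearest gene taken by gene body, Cfp had 2 sites in MAC and C5ar1 had 3. Neither curated TSS alone, nor a distal reach of 50 kb, nor either rule of merging moved a count past 1.5 times. Width is the only property by which these lists can be made stricter, and the lists give no depth. The median width leaves fewer sites in every list, and the limit to the number of HP sites leaves fewer in every list but HP, whose counts it left as they were. No paired analysis was possible because each stage is a single list and the result comes from no test. Leaving out a replicate could not be done for the same reason.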
